A study of Mus musculus with 4 samples.

Results

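Collagen alpha chains were examined in 4 cultured mouse mammary tumor cell lines. The members were the rows of the deposited expression table whose gene symbol had the form Col, a type number, the letter a and a chain number. There were 44 such genes of 38713 in all. They belong to 27 collagen types and were arranged here in 9 structural classes. Each line gave 1 RNA sequencing library, and values are FPKM, that is, mapped fragments scaled by transcript length and by all fragments mapped in the library, as estimated by Cufflinks. Because of the scaling by length, the levels of different chains may be set side by side within a library.

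The lines came from mammary tumors of parous C57BL/6 mice that carried Wap-Cre, a transgene that expresses Cre recombinase in luminal mammary epithelium. In JNK_WT lines (n = 2, lines 1 and 2) Cre deleted floxed Trp53, the p53 gene, and Mapk8 and Mapk9 were wild-type. In JNK_KO lines (n = 2, lines 1 and 3) Cre deleted floxed Trp53 together with floxed Mapk8 and Mapk9, which encode the kinases JNK1 and JNK2. Loss of p53 was therefore shared by both groups. The tumors had been dispersed with collagenase, and the cells were first plated on dishes coated with collagen I and later moved to standard dishes, so all lines had met external collagen in culture.

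A collagen molecule is a triple helix of alpha chains, built from short repeats that begin with glycine. Fibrillar collagens (types I, II, III, V, XI and others) form the cables of connective tissue and are made mainly by fibroblasts, osteoblasts and chondrocytes. Type IV collagen forms the sheet-like network of basement membranes beneath epithelia, type VI forms beaded filaments beside basement membranes, and type VII forms the fibrils that anchor a basement membrane to the tissue below. FACIT collagens (types IX, XII, XIV, XVI and others) sit on fibril surfaces, transmembrane collagens such as type XVII span the plasma membrane, and multiplexins (types XV and XVIII) are proteoglycans of basement membranes. JNK phosphorylates the transcription factor cJUN, a part of the AP1 complex that binds the letters TGANTCA, where N is any base.

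In these cells the highest levels were those of collagens of basement membranes and networks, and no fibrillar chain exceeded 10.3 FPKM. Col18a1 was the highest chain in 3 of the 4 libraries and Col8a1 in JNK_KO line 3. In contrast, Col1a1, which encodes the major chain of type I collagen, did not exceed 0.527 FPKM in any library, and Col3a1 did not exceed 1.33 FPKM. Of the 44 chains, 7 reached 5 FPKM in every library (Col4a1, Col4a2, Col4a5, Col4a6, Col8a1, Col16a1 and Col18a1) and 16 did so in at least 1 library. A total of 20 chains stayed under 1 FPKM throughout and 8 reached 1 FPKM in exactly 1 library. The number of chains at 1 FPKM or more was 14 and 14 in JNK_WT lines 1 and 2, and 13 and 20 in JNK_KO lines 1 and 3.

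**Figure D1:**
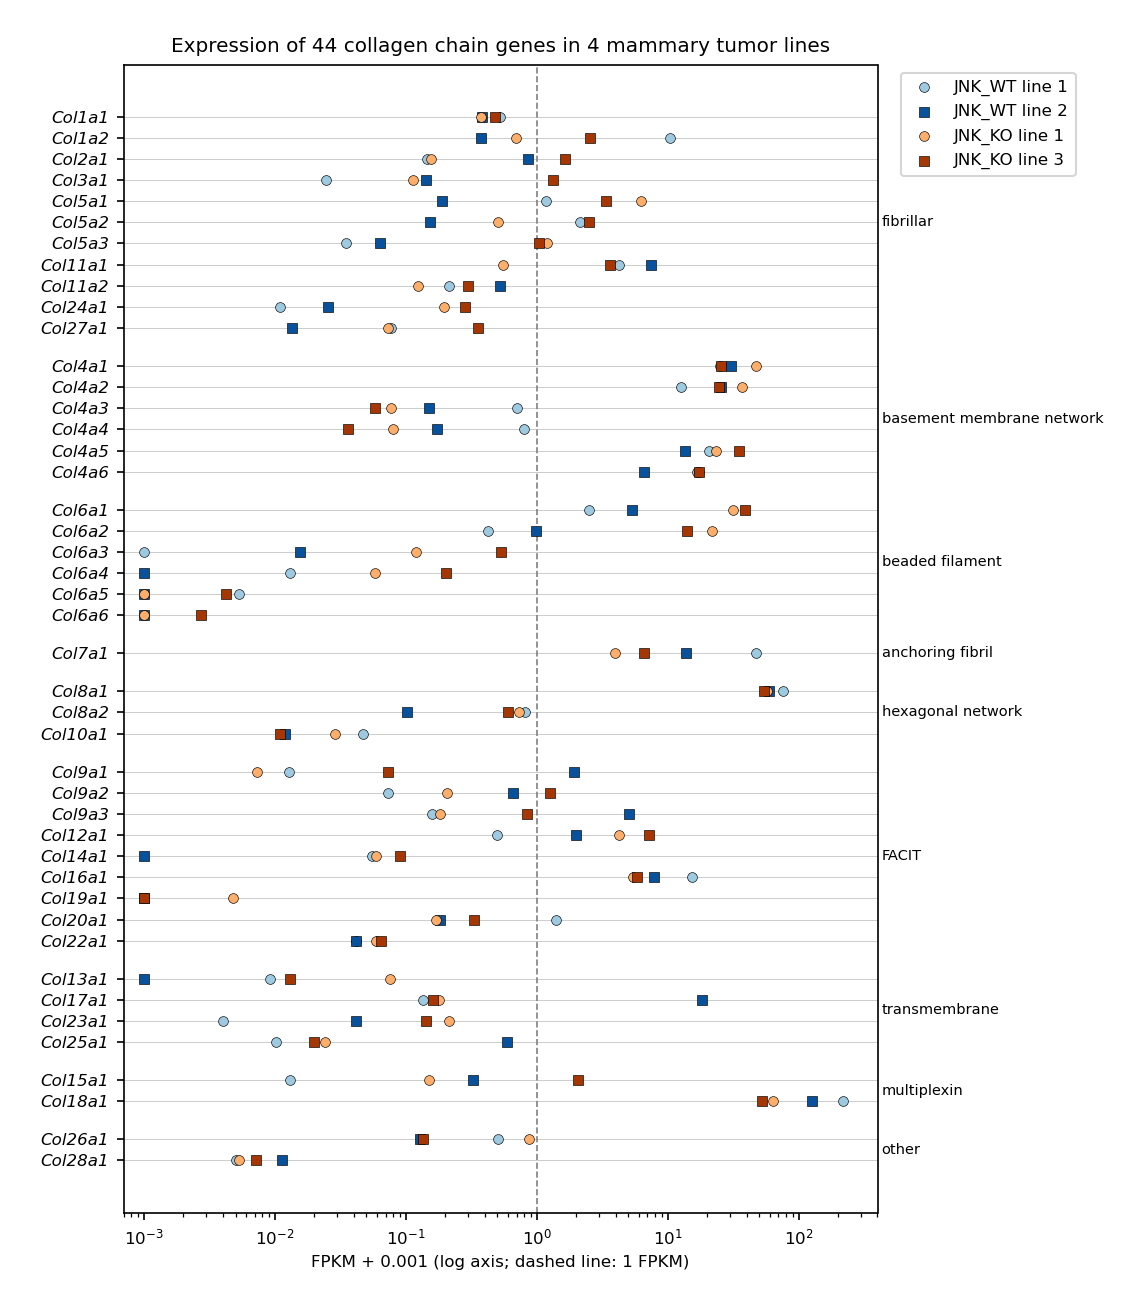
Expression of all 44 collagen chains, in rows grouped by structural class, as FPKM plus 0.001 on a log axis. Circles and squares are single libraries, blue for JNK_WT and orange for JNK_KO. Col18a1, Col8a1 and Col4a1 lie far to the right of the dashed line at 1 FPKM in all 4 libraries, Col1a1 and Col3a1 lie near or left of it, and Col6a1 and Col6a2 are separated by group.

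Facts of the libraries that touch these values are as follows. FPKM summed to between 775960 and 921595 per library, and the tested genes had upper quartiles between 33.2 and 34.3 FPKM. The deposited values carry no read counts. The steps between low values placed the depth of JNK_WT lines 1 and 2 and JNK_KO line 3 at 1.06, 1.27 and 1.41 times that of JNK_KO line 1. Mapk8 was at 23.9 and 19.1 FPKM in the JNK_WT lines and at 4.30 and 4.27 FPKM in the JNK_KO lines, and Mapk9 was at 29.7 and 24.3 against 12.6 and 8.66 FPKM. Trp53 was at 1.55 and 4.15 FPKM in the JNK_WT lines and at 5.72 and 4.28 FPKM in the JNK_KO lines. All 14 epithelial markers were tested, with summed levels of 5073 and 4029 FPKM in the JNK_WT lines and 1868 and 3620 FPKM in the JNK_KO lines. Epithelial markers were thus present in every library, and so were some fibroblast markers, given below. Of 10 leukocyte markers, 8 stayed under 1 FPKM, among them Ptprc and Tyrobp, and of 9 endothelial and pericyte markers 8 did so. The summed level over the 4 libraries was 3.67 to 22.2 FPKM for the leukocyte list and 2.87 to 6.37 FPKM for the endothelial and pericyte list.

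The chains were compared between the groups with limma on log2(FPKM + 1), as JNK_KO minus JNK_WT, over the 12998 genes that reached 1 FPKM in at least 2 libraries. On this scale the change of a weakly expressed gene is understated. Of the 44 chains, 16 passed this filter, and 2 of them, Col6a2 and Col5a3, passed through the JNK_KO libraries alone and so had to differ. A gene was called where the adjusted p-value was under 0.05 and the log2 difference exceeded 0.75 in size. No chain was called (0 of 16, with 0.0% called over all tested genes), and the smallest limma adjusted p-value of a chain was 0.144, for Col6a2. Over all tested genes limma gave 0 calls, while 992 genes had an unadjusted p-value under 0.05 and the smallest adjusted p-value was 0.0515. With 2 lines per group, the smallest p-value that an exact permutation test can give is 0.33. All p-values measure the spread between these lines.

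Without regard to a call, a difference over 0.75 was found in 5 chains that were higher and 4 that were lower in JNK_KO cells, where 9.25% and 6.43% of all tested genes had such differences. The higher chains were Col6a2, Col6a1, Col5a1, Col12a1 and Col5a3. The lower chains were Col7a1, Col18a1, Col11a1 and Col16a1. In 7 chains both JNK_KO lines exceeded both JNK_WT lines, in 5 both were lower, and the groups overlapped in 4. For all tested genes the shares were 18.3% above and 16.7% below. An unadjusted limma p-value under 0.05 was reached by 5 chains that were higher and 2 that were lower, beside 4.75% and 2.89% of all tested genes. Without Col6a2 and Col5a3, whose direction the filter fixed, 14 tested chains remained, of which 3 were higher and 4 lower by over 0.75, and 3 were higher and 2 lower at an unadjusted p-value under 0.05. Single lines moved these counts. Without JNK_WT line 1 the number of chains over 0.75 and higher was 9, and the 7 chains with an unadjusted p-value under 0.05 became 3 without JNK_KO line 1 and 4 without JNK_KO line 3. The median log2 difference of the tested chains was 0.49, against 0.01 for all tested genes, and 0.30 without those 2 chains. It was 0.92 without JNK_WT line 1 and 0.24 without JNK_WT line 2, and 0.060 over all 44 chains with no filter. Among all 44 chains 14 lay higher without overlap, 7 lower and 23 overlapped, beside 18.4% higher and 13.9% lower of the 25135 genes above 0 in any library.

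**Figure D2:**
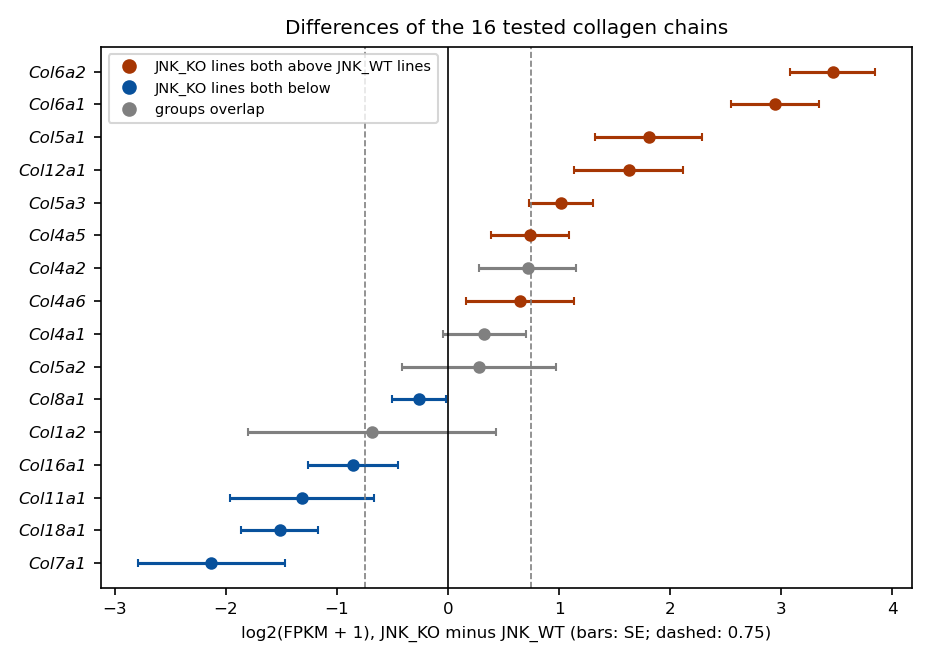
Difference in log2(FPKM + 1) between JNK_KO and JNK_WT lines for the 16 tested collagen chains, with bars for the standard error and dashed lines at 0.75. Col6a2 and Col6a1 have the largest positive values (3.46 and 2.94), Col7a1 and Col18a1 the largest negative values (-2.13 and -1.52), and grey marks the 4 chains whose groups overlapped.

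Promoter sequence is shown for chains of types I, IV and VI and for Col7a1, whose difference was the next largest, and also for Col18a1, chosen after its values were seen because it lies near the type VI genes. The sequences are stretches of the 250 bases before the RefSeq start site (GRCm38, the assembly that mm10 denotes) that lie outside annotated exons, written 5′ to 3′ on the strand of the gene. Capitals mark the matches to 4 motifs on both strands. The first motif was CCAAT, known as a site of the factor NF-Y. Its reverse complement is ATTGG. The next was GGGCGG, the GC box known as a site of SP1. Its reverse complement is CCGCCC. The others were the TATA box, searched as TATAAA, and the AP1 letters given above. No matches overlapped in the sequences shown.
Col6a1 around its TGANTCA match, chr10:76726119-76726143, minus strand: ctgatgctgTGACTCActcagcttt
Col6a1, chr10:76726169-76726294, minus strand: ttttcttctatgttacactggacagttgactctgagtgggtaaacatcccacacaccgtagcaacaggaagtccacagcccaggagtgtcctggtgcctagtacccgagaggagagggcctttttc
Col6a2, chr10:76623631-76623880, minus strand: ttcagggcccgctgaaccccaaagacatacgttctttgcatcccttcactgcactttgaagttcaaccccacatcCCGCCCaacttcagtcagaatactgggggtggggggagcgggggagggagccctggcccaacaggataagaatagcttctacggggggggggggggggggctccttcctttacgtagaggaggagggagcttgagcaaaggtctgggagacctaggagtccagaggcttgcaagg
Col18a1, chr10:77166549-77166780, minus strand: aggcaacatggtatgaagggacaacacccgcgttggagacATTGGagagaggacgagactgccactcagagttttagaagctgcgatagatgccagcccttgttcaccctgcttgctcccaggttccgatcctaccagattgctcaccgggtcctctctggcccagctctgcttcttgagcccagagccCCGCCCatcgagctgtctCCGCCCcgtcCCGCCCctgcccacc
Col7a1, chr9:108953336-108953585, plus strand: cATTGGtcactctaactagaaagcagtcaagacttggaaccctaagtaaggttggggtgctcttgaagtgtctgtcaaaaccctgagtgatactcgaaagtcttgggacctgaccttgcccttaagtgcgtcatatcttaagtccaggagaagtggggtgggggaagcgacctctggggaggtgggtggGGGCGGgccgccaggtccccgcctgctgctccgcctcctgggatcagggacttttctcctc
Col4a6, chrX:141474077-141474326, minus strand: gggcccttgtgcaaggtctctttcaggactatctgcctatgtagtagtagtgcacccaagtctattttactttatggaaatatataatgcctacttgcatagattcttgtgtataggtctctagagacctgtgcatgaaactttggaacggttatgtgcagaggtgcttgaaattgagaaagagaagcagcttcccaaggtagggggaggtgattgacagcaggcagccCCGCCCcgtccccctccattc
Col4a4 to Col4a3, chr1:82586850-82586920, minus strand: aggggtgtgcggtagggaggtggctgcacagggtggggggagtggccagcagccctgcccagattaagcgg
Col1a2, chr6:4505370-4505492, plus strand: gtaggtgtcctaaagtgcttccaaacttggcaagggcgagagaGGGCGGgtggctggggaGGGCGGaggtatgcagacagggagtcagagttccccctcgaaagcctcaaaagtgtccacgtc

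The match to the AP1 letters in Col6a1 began after 9 of the 25 bases shown and ended 83 bases before the RefSeq start. It lies within an exon of another annotated transcript, and the longer stretch shown for Col6a1, farther upstream, holds no match. Of the 35 chains with an entry among the promoters, TGANTCA was found for 1, Col6a1, which was also the only one of the 14 tested chains with an entry. All windows of this length held it in 6.75% of 32851 cases, and the windows of tested genes in 5.56%. GGGCGG was found for 12 of the 14 tested chains (65.6% of 8946 tested genes with an entry), CCAAT for 9 (41.1%) and TATAAA for 0 (7.69%). A match of letters is a description of the sequence, and no binding was measured.

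Type VI collagen showed the largest differences. Col6a1 and Col6a2 encode chains that join a further chain, such as that of Col6a3, in 1 molecule. Col6a2 (GRCm38 chromosome 10, 76595762 to 76623630, minus strand) was at 0.425 and 0.982 FPKM in JNK_WT lines 1 and 2, and at 21.7 and 14.1 FPKM in JNK_KO lines 1 and 3. Both JNK_KO libraries were above 14 FPKM and neither JNK_WT library reached 1 FPKM. The means were 0.704 ± 0.393 and 17.9 ± 5.35 FPKM (SD, n = 2 each), a ratio of 25.4. The log2 difference was 3.46 (SE 0.38, limma adjusted p-value 0.144), and across the other settings its limma adjusted p-value was between 0.117 and 0.690. Since Col6a2 passed the filter through the JNK_KO lines alone, its direction was fixed by the filter, and these values are a description.

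Col6a1 (chromosome 10, 76708792 to 76726168, minus strand) was at 2.51 and 5.33 FPKM in JNK_WT lines 1 and 2, and at 31.8 and 38.9 FPKM in JNK_KO lines 1 and 3. The groups were separated by several times the spread within either. The means were 3.92 ± 1.99 and 35.4 ± 5.07 FPKM (SD, n = 2 each), a ratio of 9.02, with a log2 difference of 2.94 (SE 0.40, limma adjusted p-value 0.191, between 0.173 and 0.827 across the other settings). The further chain was low. Col6a3 was at 0 and 0.0145 FPKM in the JNK_WT lines and at 0.118 and 0.535 FPKM in the JNK_KO lines, and it did not pass the filter. Of the chains that can take its place, Col6a4 reached 0.202 FPKM in JNK_KO line 3, Col6a5 did not exceed 0.00427 FPKM, and Col6a6 was listed at 0 in every library except JNK_KO line 3.

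Ratios within a library show how the chains of type VI stood to each other. Col6a2 was at 0.169 and 0.184 of Col6a1 in the JNK_WT lines and at 0.682 and 0.362 in the JNK_KO lines. Col6a3 was at 0 and 0.00272 of Col6a1 in the JNK_WT lines and at 0.00371 and 0.0137 in the JNK_KO lines. The ratio of Col6a2 to Col6a1 was thus higher in both JNK_KO lines, while Col6a3 stayed under 2% of Col6a1 in all 4 libraries.

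**Figure D3:**
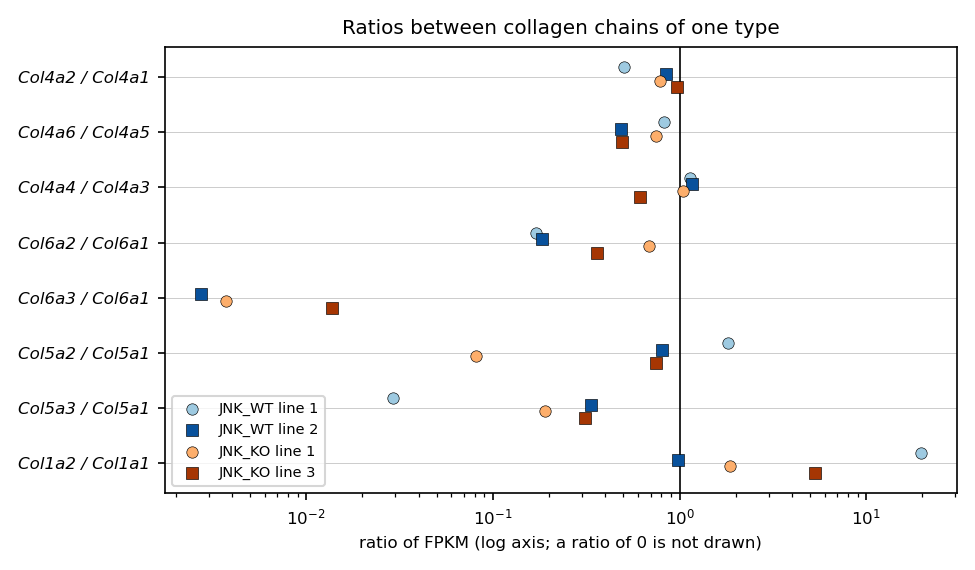
Ratio of the FPKM of a chain to that of a partner chain of the same collagen type in each library, on a log axis. Ratios of the type IV pairs lie between 0.485 and 1.16, Col6a3 lies below 0.02 of Col6a1 wherever it is drawn, and Col1a2 is 19.6 times Col1a1 in JNK_WT line 1.

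Type XVIII collagen, the highest chain in most libraries, was lower in both JNK_KO lines. Col18a1 (chromosome 10, 77052178 to 77166548, minus strand) encodes a basement membrane proteoglycan whose end fragment is endostatin. It was at 219 and 127 FPKM in JNK_WT lines 1 and 2, and at 63.3 and 52.2 FPKM in JNK_KO lines 1 and 3. The lowest JNK_WT value was above both JNK_KO values. The means were 173 ± 65.1 and 57.7 ± 7.80 FPKM (SD, n = 2 each), a JNK_WT level 2.99 times that of JNK_KO. The log2 difference was -1.52 (SE 0.35, unadjusted p-value 0.00916, limma adjusted p-value 0.396). Its relative Col15a1, the other multiplexin, reached 2.06 FPKM in JNK_KO line 3 and was at most 0.323 FPKM in the other libraries.

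Col6a2, Col6a1 and Col18a1 lie within 571 kb of chromosome 10, from 76595762 to 77166548. The type VI genes and Col18a1 differed in opposite directions, although they are neighbors. Between the outer genes 2 other genes were tested. Pcbp3 had a log2 difference of -0.38 and Slc19a1 of 0.11, both with overlapping groups. Slc19a1 overlaps Col18a1 in position but shares no annotated exon bases with it. The median log2 difference of the 600 tested genes of chromosome 10 was -0.04.

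Type VII collagen, the anchoring fibril, was also lower in both JNK_KO lines. Col7a1 (chromosome 9, 108953586 to 108984875, plus strand) stood at 47.5 and 13.8 FPKM in JNK_WT lines 1 and 2, and at 3.97 and 6.54 FPKM in JNK_KO lines 1 and 3. The JNK_WT lines were far apart, and both lay above the JNK_KO lines. The means were 30.7 ± 23.8 and 5.25 ± 1.82 FPKM (SD, n = 2 each). The log2 difference was -2.13 (SE 0.66, unadjusted p-value 0.0272, limma adjusted p-value 0.533), and it was -1.28 without JNK_WT line 1 and -2.99 without JNK_WT line 2.

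Type IV collagen, the basement membrane network, was present in every library. The genes of its 6 chains lie head to head in pairs, each pair with a start site region in common. The span between neighbors was 71 bases for Col4a4 and Col4a3 and 1308 bases for Col4a6 and Col4a5, and the annotated starts of Col4a1 and Col4a2 overlapped by 22 bases. The whole sequence between Col4a4 and Col4a3 is printed above. Col4a1 was at 25.1 and 30.2 FPKM in JNK_WT lines 1 and 2 and at 47.0 and 25.6 FPKM in JNK_KO lines 1 and 3. Its partner Col4a2 was at 12.6 and 25.4 FPKM in the JNK_WT lines and at 37.0 and 24.7 FPKM in the JNK_KO lines. Groups overlapped for both, with log2 differences of 0.33 and 0.72, and without JNK_KO line 1 that of Col4a1 was -0.10.

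Col4a5 was at 20.5 and 13.7 FPKM in the JNK_WT lines and at 23.3 and 35.0 FPKM in the JNK_KO lines, a log2 difference of 0.74 (SE 0.35). Col4a6 was at 16.8 and 6.62 FPKM in the JNK_WT lines and at 17.4 and 17.2 FPKM in the JNK_KO lines, a log2 difference of 0.65 (SE 0.48). Groups did not overlap for either X-linked chain, but for Col4a6 the groups were closer to each other than the JNK_WT lines were, and without JNK_WT line 2 its difference was 0.03. The remaining pair, Col4a3 and Col4a4, which form the network of the kidney glomerulus, stayed under 1 FPKM. Col4a3 was at 0.706 and 0.149 FPKM in the JNK_WT lines and at 0.0763 and 0.0568 FPKM in the JNK_KO lines. Col4a4 was at 0.80 and 0.173 FPKM in the JNK_WT lines and at 0.0794 and 0.0350 FPKM in the JNK_KO lines. Col4a2 was at 0.505 to 0.965 of Col4a1, Col4a6 at 0.485 to 0.822 of Col4a5, and Col4a4 at 0.617 to 1.16 of Col4a3. Annotated exons of Col4a3 share 5.65% of their bases with a transcript of the opposite strand, so its low values are uncertain.

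Type VIII collagen, a hexagonal network known from vessel walls and the cornea, was at similar levels in all lines. Col8a1 was at 76.1 and 59.0 FPKM in the JNK_WT lines and at 57.4 and 54.1 FPKM in the JNK_KO lines. The log2 difference was -0.26 (SE 0.24), and the gap of the groups was narrow beside the spread of JNK_WT. Its partner Col8a2 did not exceed 0.805 FPKM, and Col10a1, a chain of the same class made by hypertrophic chondrocytes, did not exceed 0.0457 FPKM.

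Fibrillar chains were low, and Col5a1 and Col5a3 of type V were higher in both JNK_KO lines. Type V collagen is known to start the assembly of type I fibrils. Col5a1 was at 1.17 and 0.187 FPKM in JNK_WT lines 1 and 2, and at 6.24 and 3.36 FPKM in JNK_KO lines 1 and 3. The log2 difference was 1.81 (SE 0.48, unadjusted p-value 0.0160, limma adjusted p-value 0.458). Col5a3 ranged from 0.0342 to 0.0627 FPKM in the JNK_WT lines and from 1.04 to 1.19 FPKM in the JNK_KO lines, with a log2 difference of 1.01 (SE 0.29). The value of Col5a3 was 3.04 with a pseudocount of 0.1, 1.56 with 0.5 and 0.59, under the 0.75 mark, with quantile normalization. Both chains lay higher in both JNK_KO libraries. Col5a2, the usual partner of Col5a1, overlapped between groups and ranged from 0.151 to 2.50 FPKM, with a log2 difference of 0.28. It was at 1.82 and 0.806 of Col5a1 in the JNK_WT lines and at 0.0812 and 0.745 in the JNK_KO lines.

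Col1a1 and Col3a1, of types I and III, were low in each line. Col1a1 was at 0.527 and 0.380 FPKM in the JNK_WT lines and at 0.374 and 0.481 FPKM in the JNK_KO lines. Col1a2, the second chain of type I collagen (chromosome 6, 4504814 to 4541544, plus strand), stood at 10.3 and 0.374 FPKM in JNK_WT lines 1 and 2 and at 0.698 and 2.56 FPKM in JNK_KO lines 1 and 3. It was high in JNK_WT line 1 alone, where it was 19.6 times Col1a1, while type I collagen usually joins a pair of Col1a1 chains with 1 of Col1a2. The log2 difference of Col1a2 was -0.68 (SE 1.12), and without JNK_WT line 1 it was 0.84. The median log2 difference of the 628 tested genes of chromosome 6 was -0.59, and its part in the value of Col1a2 was not tested. Col3a1 reached 1.33 FPKM in JNK_KO line 3 and was at most 0.141 FPKM elsewhere.

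Col11a1, which forms the core of cartilage fibrils with type II collagen, was at 4.26 and 7.45 FPKM in the JNK_WT lines and at 0.548 and 3.64 FPKM in the JNK_KO lines. Both JNK_KO values were lower, with a log2 difference of -1.31 (SE 0.65) that was -0.52 without JNK_KO line 1. The other fibrillar chains reached 1.63 FPKM (Col2a1), 0.521 FPKM (Col11a2), 0.280 FPKM (Col24a1) and 0.352 FPKM (Col27a1).

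The tested FACIT collagens differed in opposite directions. Col12a1, which binds the surface of fibrils in tendon and stroma, was at 0.497 and 2.00 FPKM in the JNK_WT lines and at 4.27 and 7.13 FPKM in the JNK_KO lines. The log2 difference was 1.63 (SE 0.49, unadjusted p-value 0.0251, limma adjusted p-value 0.519). Col16a1 was at 15.2 and 7.80 FPKM in the JNK_WT lines and at 5.43 and 5.81 FPKM in the JNK_KO lines, a log2 difference of -0.85 (SE 0.41) that was -0.41 without JNK_WT line 1. Neither chain overlapped between the groups, but in Col16a1 the gap was smaller than the spread of JNK_WT. Among the others of this class, Col14a1, Col19a1 and Col22a1 did not exceed 0.0888, 0.00379 and 0.0637 FPKM, and Col20a1 reached 1.40 FPKM in JNK_WT line 1.

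Several chains were high in 1 line, whatever its group. Col17a1, a transmembrane collagen of hemidesmosomes, which bind basal epithelial cells to the basement membrane, was at 0.134 and 18.2 FPKM in JNK_WT lines 1 and 2 and at 0.177 and 0.159 FPKM in JNK_KO lines 1 and 3. JNK_WT line 2 was 103 times the next library. In the same line the basal markers Krt5 and Trp63 were at 61.9 and 21.9 FPKM, against at most 0.205 and 6.58 FPKM in the other lines. Itgb4, a chain of the hemidesmosome integrin, was at 178 FPKM there against at most 35.6 FPKM. The basal marker Krt14 was at 443 FPKM there but also at 313 FPKM in JNK_KO line 3, where Col17a1 was low. The contractile markers of the same list were mixed. Acta2 was at 3.19 FPKM in JNK_WT line 2 and 29.0 FPKM in JNK_KO line 3, and Myh11 was under 1 FPKM throughout. Cnn1 and Mylk were low but highest in JNK_WT line 2, at 2.24 and 1.79 FPKM. The 10 basal and myoepithelial markers summed to 27.6 and 737 FPKM in the JNK_WT lines and to 39.5 and 378 FPKM in the JNK_KO lines, and of those tested (5 of 10) the largest differences were in Krt17 (-1.63), Krt14 (0.62) and Acta2 (0.60), all with overlapping groups. The part of this state in the level of Col17a1 was not tested.

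Chains of type IX, a cartilage FACIT, were also highest in JNK_WT line 2. Col9a3 was at 0.157 and 5.07 FPKM in the JNK_WT lines and at 0.180 and 0.834 FPKM in the JNK_KO lines. Col9a1 was at 1.93 FPKM in JNK_WT line 2 and did not exceed 0.0723 FPKM elsewhere. Col9a2 was highest in JNK_KO line 3, at 1.26 FPKM. Annotated exons of Col9a3 share 6.07% of their bases with Tcfl5 on the opposite strand. Of the remaining transmembrane chains, Col25a1 reached 0.588 FPKM in JNK_WT line 2, Col23a1 0.212 FPKM and Col13a1 0.0749 FPKM in JNK_KO line 1. Col26a1 and Col28a1, in no other class, did not exceed 0.872 and 0.0103 FPKM. Of the 28 chains that were not tested, 11 were highest in JNK_KO line 3, and the share over all untested genes was not computed. That library had the greatest relative depth, for which FPKM is scaled, and a part of depth was not tested.

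Summed over all chains, collagen transcripts were at 460 and 329 FPKM in JNK_WT lines 1 and 2 and at 326 and 305 FPKM in JNK_KO lines 1 and 3. These sums were 0.0592% and 0.0391% of all FPKM in the JNK_WT lines and 0.0354% and 0.0379% in the JNK_KO lines. The means were 0.0492% ± 0.0143 and 0.0367% ± 0.00183 (SD, n = 2 each), a difference of -0.0125 percentage points (exact permutation p-value, two-sided, 0.33, the smallest possible). Without JNK_WT line 1 the difference was -0.00244 and without JNK_WT line 2 it was -0.0226, so that its size rested on JNK_WT line 1.

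The makeup of this sum differed more than its total. Type XVIII held 47.6% and 38.5% of collagen FPKM in JNK_WT lines 1 and 2, and 19.4% and 17.1% in JNK_KO lines 1 and 3. Type IV held 16.6% and 23.1% in the JNK_WT lines, and 38.3% and 33.6% in the JNK_KO lines. Type VI held 0.643% and 1.92% in the JNK_WT lines, and 16.5% and 17.6% in the JNK_KO lines. Types XVIII, IV and VI each had groups that did not overlap, while type VIII stayed between 16.7% and 18% in all 4 libraries. Type VII held 10.3% of the sum in JNK_WT line 1 and 1.22% to 4.19% in the other lines. With 2 lines per group no test of these shares could go below the permutation limit given above.

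**Figure D4:**
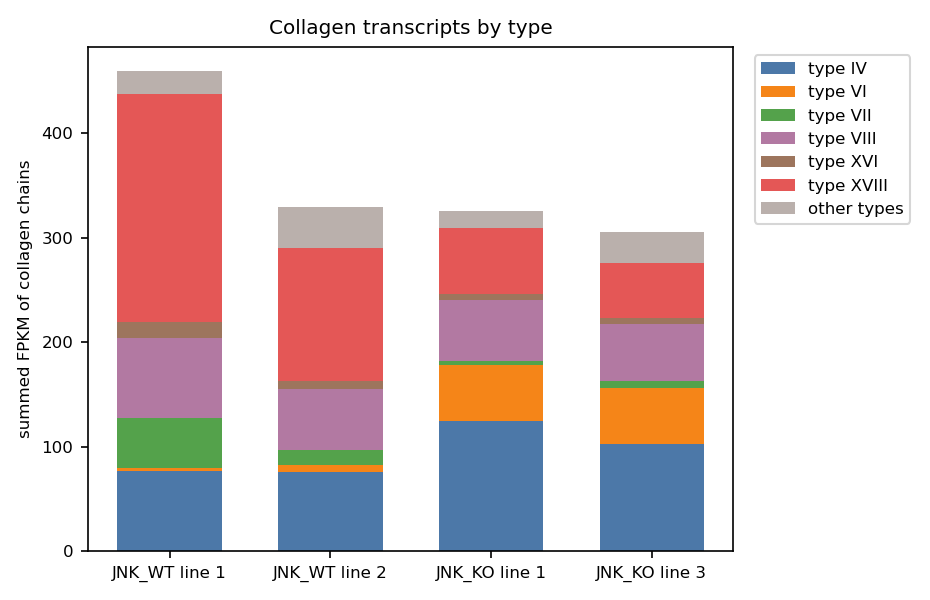
Summed FPKM of the collagen chains in each of the 4 libraries, stacked by collagen type. Type XVIII is the largest block in both JNK_WT lines (219 and 127 FPKM), type IV is the largest in both JNK_KO lines (125 and 103 FPKM), and type VI is visible mainly in the JNK_KO lines (53.6 and 53.8 FPKM).

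Genes that build the triple helix were examined next. Procollagen chains are hydroxylated on proline and lysine, glycosylated and folded with chaperones before secretion. Of 24 such biosynthesis genes 21 were tested. An unadjusted p-value under 0.05 was reached by 4 that were higher and 0 that were lower, and 9 were higher and 2 lower by over 0.75, with a median log2 difference of 0.26. Over all tested genes 4.75% were higher and 2.89% lower at that p-value, and 9.25% and 6.43% by over 0.75, and these shares stand beside every list below. P4ha3, a prolyl 4-hydroxylase subunit, was at 0.504 and 0.0577 FPKM in the JNK_WT lines and at 6.58 and 4.73 FPKM in the JNK_KO lines, a log2 difference of 2.39 (SE 0.36). It passed the filter through the JNK_KO lines alone, and without it 3 genes were higher at that p-value and 8 by over 0.75. The 3 genes were Lepre1 (1.42), Crtap (1.06) and Plod1 (0.79). Its paralogs P4ha1 and P4ha2 had log2 differences of -0.43 and -0.97. The prolyl 3-hydroxylase Leprel1 differed by 1.63 (0.79 to 2.47 without 1 line) and the chaperone Fkbp10 by 1.55. For Fkbp10 this rested on JNK_KO line 1, at 30.3 FPKM, with groups that overlapped and a difference of -0.067 without that line. The collagen chaperone Serpinh1 was at 128 and 53.1 FPKM in the JNK_WT lines and at 164 and 136 FPKM in the JNK_KO lines, a log2 difference of 0.85 (SE 0.48) that was 0.22 without JNK_WT line 2, and the lysyl hydroxylase Plod2 differed by 0.20 with overlapping groups.

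Of 16 genes that trim procollagen or crosslink it, 9 were tested, with 1 higher and 1 lower at an unadjusted p-value under 0.05 and a median log2 difference of 0.34. The lysyl oxidase Loxl4 was at 17.4 and 19.3 FPKM in the JNK_WT lines and at 53.5 and 54 FPKM in the JNK_KO lines, a log2 difference of 1.5 (SE 0.23). The procollagen peptidase Adamts14 was at 4.38 and 6.26 FPKM in the JNK_WT lines and at 1.26 and 1.14 FPKM in the JNK_KO lines, a difference of -1.51 (SE 0.33). Both were tightly grouped within genotype. Loxl3 differed by -1.36 (-2.08 to -0.64 without 1 line). Lox was at 63.8 FPKM in JNK_KO line 3 and between 9.57 and 18.9 FPKM elsewhere, with a difference of 0.92. The procollagen peptidase Bmp1 differed by -0.01 with overlapping groups, and Loxl2 reached 1.78 FPKM in JNK_KO line 1 alone and was not tested.

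The list of 15 collagen receptor genes also held Itga6 and Itgb4, chains of the hemidesmosome integrin rather than collagen receptors. Of the 15 genes 10 were tested, with 1 higher and 0 lower at an unadjusted p-value under 0.05. Their median was -0.09, with Itga6 and Itgb4 included. The discoidin receptor Ddr2, a kinase activated by fibrillar collagen, was at 3.67 and 1.27 FPKM in the JNK_WT lines and at 26.8 and 8.87 FPKM in the JNK_KO lines, a log2 difference of 2.35 (SE 0.67). The epithelial discoidin receptor Ddr1 was at 49.5 and 90.2 FPKM in the JNK_WT lines and at 44.5 and 87.4 FPKM in the JNK_KO lines, a difference of -0.10 with overlapping groups. Antxr1 differed by 1.81 and Itgb4 by -1.64, and without JNK_WT line 2 these were 0.92 and -0.50. Of the collagen-binding integrin chains, Itga2 differed by 0.08 with overlapping groups and by -0.0027 under quantile normalization, while Itga1 and Itga11 stayed under 1 FPKM.

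**Figure D5:**
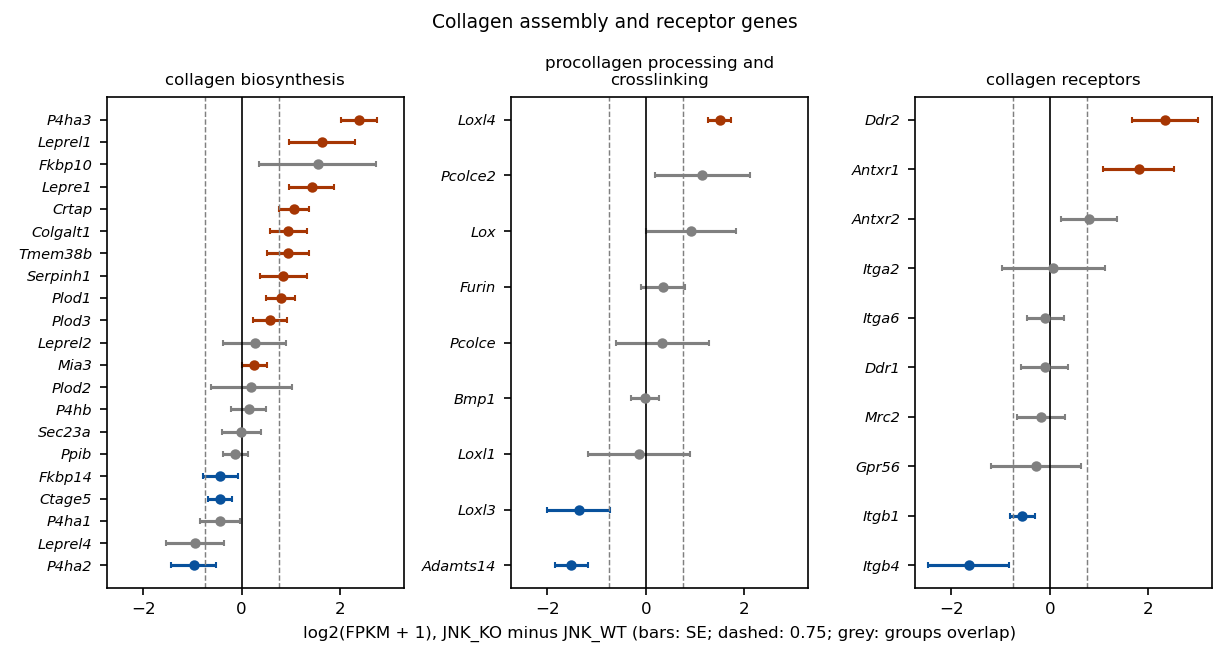
Difference in log2(FPKM + 1) between JNK_KO and JNK_WT lines for the tested genes of collagen biosynthesis, procollagen processing and crosslinking, and collagen receptors, with bars for the standard error and dashed lines at 0.75. P4ha3 (2.39), Loxl4 (1.5) and Ddr2 (2.35) head the panels, and grey marks genes whose groups overlapped.

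Other matrix genes and regulators were taken from further lists. Of 19 basement membrane partners 15 were tested, 0 of them with an unadjusted p-value under 0.05, with a median log2 difference of -0.11. Nid1, which links laminin to type IV collagen, differed by 1.27 (0.36 without JNK_KO line 1). Fbln2 differed by -1.27 with JNK_WT line 1 at 1093 FPKM and overlapping groups. Fbln1 differed by 1.26, but it passed the filter through the JNK_KO lines alone, which fixed its direction. Without Fbln1 the median of the 14 genes left was -0.14. Of 16 genes that organize fibrils 11 were tested, with 3 higher and 2 lower at an unadjusted p-value under 0.05 and a median of 0.30. All 3 of the higher genes (Dcn, Prelp and Fbn1) passed the filter through the JNK_KO lines alone and the lower gene Comp through the JNK_WT lines alone, so that the filter fixed their direction. Without these, 7 genes had 0 higher and 1 lower and a median of -0.45. Dcn, the fibril-binding proteoglycan decorin, was at 0.430 and 0.389 FPKM in the JNK_WT lines and at 79.7 and 162 FPKM in the JNK_KO lines, a log2 difference of 6.35 (SE 0.43, limma adjusted p-value 0.0554). Prelp differed by 3.30, and Bgn by -1.62 with overlapping groups and JNK_WT line 1 at 85.1 FPKM. Of 26 regulators of collagen genes with a row, 24 were tested, with 1 higher and 1 lower at an unadjusted p-value under 0.05 and a median of -0.04. Tgfb2 differed by 1.87, the tendon factor Scx by -0.96 and Smad3 by -0.88 with overlapping groups (-0.17 without JNK_WT line 1), while Tgfb1, a known inducer of fibrillar collagen genes, differed by -0.36 with overlapping groups.

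Fibroblast markers were examined beside the type V, VI and XII chains, since several had the same order of groups. Of 15 such markers 9 were tested, 5 higher and 0 lower at an unadjusted p-value under 0.05, with a median log2 difference of 1.67. Of the 5, Dcn, Pdgfra, Pdgfrb and Cd34 passed the filter through the JNK_KO lines alone, which fixed their direction. Of the 5 markers tested without them 1 was higher, Prrx1, and the median was 0.60. The summed level of the 15 markers was 435 and 137 FPKM in the JNK_WT lines and 810 and 444 FPKM in the JNK_KO lines. The largest differences were those of Dcn, Pdgfra (3.59) and Cd34 (2.65). Pdgfra was at 0.325 and 0.183 FPKM in the JNK_WT lines and at 24.7 and 7.82 FPKM in the JNK_KO lines. Of the others, Lum did not exceed 0.0084 FPKM, Dpt was listed at 0 in all libraries, and Pi16 and Fap stayed under 1 FPKM. Vim was at 331 and 47.2 FPKM in the JNK_WT lines and at 500 and 159 FPKM in the JNK_KO lines. S100a4 was at 60.7 and 42.6 FPKM in the JNK_WT lines and at 111 and 50.5 FPKM in the JNK_KO lines. The groups of both overlapped. Twist1 was lower in both JNK_KO lines, with a log2 difference of -1.16. Col1a1 and Col3a1 were low as given above. The epithelial markers had a median log2 difference of -0.48, with Epcam at -1.19, Cldn4 at -1.13 and Krt8 at -1.0. The groups of Cldn4 overlapped, and its difference was -0.18 without JNK_KO line 1. Of the 14, 3 were lower without overlap, 1 (Elf3, 0.71) was higher without overlap and 10 overlapped. Over all tested genes 16.7% were lower and 18.3% higher without overlap. In bulk libraries, fewer cells of a type and less RNA per cell cannot be told apart, and the part of other cells in the collagen differences was not tested. Leukocyte markers that were tested, Cd68 (-0.67) and Csf1r (-0.24), overlapped between groups, and Mcam, the only pericyte marker tested, was lower (-1.41). Among 8 housekeeping genes the largest differences were those of Gapdh (-1.28), Sdha (-0.47) and Tbp (-0.23). Gapdh lies on chromosome 6, as do Loxl3, Fbln2 and Antxr1 above. Of these Antxr1 went the other way, at 1.81 with both JNK_KO lines higher. The tested genes of that chromosome had a median of -0.59, and its part in these values was not tested.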

How the data were processed

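RNA was sequenced from 4 mammary tumor lines, 1 library each. Per the study's methods and processing notes, the authors trimmed and sampled single-end reads, aligned them with TopHat2 2.0.14 and Bowtie2 to mm10 (GRCm38), and estimated FPKM with Cufflinks 2.2.1. The deposited values are FPKM per gene and library, not pooled. The annotation, strand and any scaling between libraries are not given in the sources used here. Cufflinks divides reads shared by overlapping genes by an estimate, and close paralogs can trade reads.

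Of 38741 rows, 27 with symbols turned into dates and 1 without a value were left out, leaving 38713. Positions came from GENCODE M21 (GRCm38), matched for 35458 genes by symbol and 1746 by an older symbol. Genes with at least 1 FPKM in at least 2 of 4 libraries were tested on log2(FPKM + 1) with limma 3.58.1 (eBayes with an intensity trend, two-sided) in R 4.3.3, with Benjamini-Hochberg adjustment over 12998 genes. A count model was not used, since FPKM are not counts. The fit was checked on simulated data with 200 changed genes. The noise was drawn from variances that limma had already moderated across genes. Log2 differences of 1 or 2 were called in 0% of these, of 3 in 84.8% and of 4 in 94.6%. The false calls were 13.4 at a size of 3 and 16 at 4. In the real fit Dcn, at 6.35, and Col6a2, at 3.46, were not called. The simulated shares at 3 and 4 may therefore be too high for these data. A lack of calls is no sign that a chain did not differ by 1 or 2, or by more. Promoters came from the RefSeq table of GRCm38, in which 35 of 44 chains had an entry.

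Chains, lists and tests were chosen with earlier results of these data known. Every chain was accounted for, with values for those at 5 FPKM or more. From each list the 3 tested members with the largest difference were named, with a fixed set of collagen enzymes and receptors. Col18a1's promoter, the genes near it and single markers or other genes named beyond these were chosen after their values were seen. Replicates were separate lines, and no batch was given. The study's methods give an average number of sampled reads but no depth per library, so intervals for counting error were not computed. Alternatives in pseudocount, filter, scaling, variance model and replicates were run. Figures used matplotlib 3.10.9, and summaries Python 3.11.15, pandas 2.3.3 and scipy 1.17.1.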

Additional observations from a re-analysis of the deposited data

How the results depend on the processing

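No paired analysis was possible because number 1 is the only replicate number found in both groups, and no label ties it to a common litter or day. The cause of the changes below was not tested. The count of called genes, 0 here, was 10 with a pseudocount of 0.1, 14 with 0.5, 14 without the intensity trend and 25 at an adjusted p-value threshold of 0.1. It was 0 in each fit without 1 replicate and under the other filters, scalings and the robust fit. No collagen chain was called in any of the fits at the 0.05 threshold, while Dcn was called with a pseudocount of 0.1 (7.80) or 0.5 (6.97). A filter at a mean of 5 FPKM, which tests fewer chains, left 5 chains over 0.75, 2 of them higher, and 4 with an unadjusted p-value under 0.05. Leaving out Col6a2 and Col5a3, which passed the filter through the JNK_KO lines alone, was chosen after seeing the data. It left 3 chains higher by over 0.75, 7 over 0.75 in all, 5 with an unadjusted p-value under 0.05, 10 that did not overlap and a median of 0.30. Without a filter 21 chains did not overlap and the median was 0.060.

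Without 1 replicate, 10 to 12 chains were over 0.75 (6 to 9 higher), 13 to 15 did not overlap, 3 to 8 had an unadjusted p-value under 0.05, the median ranged from 0.24 to 0.92 and the collagen share differed by -0.0226 to -0.00244 percentage points. A group of 1 line has no spread of its own, so groups overlap less readily in these fits than with 2 lines each. The 13 to 15 chains without overlap are therefore not comparable with the 12 of the main fit. The share of all tested genes without overlap in the same fits was not computed. Quantile normalization reversed Col5a2 (-0.051) and Itga2 (-0.0027).

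Fits without 1 replicate reversed the log2 difference of some genes. The ranges were -2.21 to 0.84 for Col1a2, -0.10 to 0.75 for Col4a1, -0.45 to 1.0 for Col5a2, -0.067 to 3.16 for Fkbp10, -3.37 to 0.83 for Fbln2, -4.29 to 1.05 for Bgn, -3.67 to 0.41 for Krt17, -2.25 to 3.48 for Krt14, -1.14 to 2.34 for Acta2, -1.84 to 0.50 for Cd68, -0.72 to 0.24 for Csf1r, -0.91 to 1.30 for Plod2, -0.33 to 2.16 for Lox, -0.23 to 0.21 for Bmp1, -0.58 to 0.38 for Ddr1, -1.39 to 1.54 for Itga2 and -0.88 to 0.16 for Tgfb1. The files give no read counts, so precision at low FPKM is unknown.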
